A study of Mus musculus with 4 samples.

Results

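The genes described here are 8 transcription factor genes of the STAT, IRF and BATF families, Stat2, Stat3, Irf1, Irf2, Irf7, Irf8, Irf9 and Batf2. They were found by their symbols among the 31053 genes of the count tables, and each symbol matched a single row. Pancreatic islets of adult male C57BL/6 mice (substrain J in the study's methods) were dissociated and sequenced cell by cell in droplets, so that a transcript is read with the barcode of its cell and a unique molecular identifier (UMI). Islets of several mice were pooled and then divided into 4 portions, which were left untreated or were exposed in culture for 6 h to IL-1β, to IFN-γ or to both cytokines and then dissociated. Strain and sex were thus shared by all 4 groups. The comparison asks how the transcripts of these factors stand in each islet cell type after each cytokine, and after the combination.

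Each portion gave 1 library, and differences between libraries were therefore described without any test. The 3 treated libraries were compared with the same untreated library. The untreated library held 50731370 UMIs in 3486 barcodes. The IL-1β library held 20056630 in 2911, the IFN-γ library 31209339 in 3694 and the combined library 25716645 in 2480. Limits of 200 and 4000 detected genes and of 12% mitochondrial UMIs left 1521, 2018, 2122 and 1810 cells in the same order. Median UMIs per kept cell were 15454, 7462.5, 9615 and 11123.5, so the untreated cells were the deepest and the cells given IL-1β the shallowest. The upper gene limit alone removed 843 of 2364 untreated cells that met the other limits, against 146 of 2164, 345 of 2467 and 222 of 2032 in the IL-1β, IFN-γ and combined libraries. Barcodes that also occurred in another library numbered 10, 8, 7 and 7, and 18 kept cells carried such a barcode.

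STAT proteins wait in the cytoplasm until kinases of the JAK family, bound to cytokine receptors, phosphorylate them. They then enter the nucleus as dimers and bind GAS elements. The products of Stat2 and Irf9 belong to the ISGF3 complex, which binds interferon-stimulated response elements, while Stat3 is the main STAT of the IL-6 family of cytokines. IRF proteins share a DNA-binding domain that reads GAAA repeats. Irf1 is an early gene of the IFN-γ response, Irf2 can oppose it at shared sites, Irf7 amplifies type I interferon responses, Irf8 is best known from macrophages and other myeloid cells, and Batf2 encodes a basic leucine zipper protein known from activated macrophages. In islets, IFN-γ together with IL-1β is the classical way to model the cytokine exposure of β-cells in autoimmune diabetes.

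Cell classes were made without the 8 genes. A cell was called β-like when insulin transcripts led its hormone UMIs and made up at least 5% of all its UMIs, α-like or δ-like when Gcg or Sst led with at least 2%, and in each case when the other hormones stayed under fixed limits. This gave 4797 β-like cells of 7471 kept cells (64.2%), 885 α-like and 475 δ-like cells. In the order of the libraries above there were 1168, 1121, 1256 and 1252 β-like cells, 89, 333, 296 and 167 α-like cells and 59, 151, 172 and 93 δ-like cells. Cells with few hormone UMIs were called macrophage-like (138 cells), ductal-like (78), endothelial-like (104) or mesenchymal-like (63) from marker genes. Of the markers, 8 of 9 for β-like, 4 of 6 for α-like and 4 of 4 for δ-like cells were highest in their own class, and the exception among the β-like markers was Pdx1, which was highest in δ-like cells. A group led by Ppy held too few markers to be named. Near the insulin limit, 52 β-like cells lay just inside it and 71 cells just outside it. No doublet caller was applied, and 410 cells with another hormone above its limit were kept out of all classes.

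Levels are given in CPM, the UMIs of a gene summed over a class, divided by all UMIs of that class and multiplied by 1000000, with an exact Poisson 95% interval. Folds are ratios of these levels with an exact binomial interval. Shares are the percent of cells with at least 1 UMI, with an exact binomial interval, after each cell had been thinned to 4000 UMIs. All intervals cover counting error only and leave out any further spread between cells. Levels are compared between libraries and classes, and never between genes. In β-like cells the hormone genes took 42.4% of UMIs without treatment, against 22.4%, 28.9% and 33.8% after IL-1β, IFN-γ and both, which moves every other gene upward on this scale. With IFN-γ they took 16.6% in α-like and 12.6% in δ-like cells, and with both 17.5% and 11.1%. Orders of levels between classes are therefore given on the CPM scale only. The median log2 fold of the 9204 genes tested in β-like cells was 0.40 for IL-1β, 0.32 for IFN-γ and 0.06 for the combination. It was -0.06, 0.10 and -0.17 in α-like cells and 0.02, -0.02 and -0.19 in δ-like cells. A fold relative to this shift is a median-scaled fold.

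Stretches upstream of 4 of the genes are shown because they hold letters that STAT, IRF or NF-κB proteins are known to recognise, in genes that were at least 2-fold higher in β-like cells with IFN-γ, before scaling. Windows from 250 bases before to 50 bases after a start came from RefSeq (GRCm38.p6) and covered 7 of the 8 genes with 10 windows. Searched on both strands were the GAS letters TTCNNNGAA, an IRF element of GAAA repeated after 2 bases of any kind, and the NF-κB consensus of 10 bases, and no match overlapped another. Each stretch is read 5′ to 3′ on the gene's plus strand, with capitals for the matches.

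Irf1, chr11:53769904-53770013, with a GAS and then an NF-κB match: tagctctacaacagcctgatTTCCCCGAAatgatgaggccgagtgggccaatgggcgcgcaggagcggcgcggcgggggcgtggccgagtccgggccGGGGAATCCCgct
Irf8, chr8:120736167-120736233, with 2 GAS matches: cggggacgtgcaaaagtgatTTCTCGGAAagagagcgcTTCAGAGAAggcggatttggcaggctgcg
Irf2, chr8:46739495-46739549, with an IRF element and then a GAS match: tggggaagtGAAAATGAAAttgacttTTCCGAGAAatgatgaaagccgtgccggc
Stat2, chr10:128270256-128270305, with an IRF element on the other strand: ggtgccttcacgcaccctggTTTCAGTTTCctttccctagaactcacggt

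The GAS letters stood in 8.30% of all 32851 windows, the IRF element in 3.44% and the NF-κB consensus in 8.46%. The 7 genes with a window had 10 windows in all, of which 3 (of Irf1, Irf2 and Irf8), 2 (of Irf2 and Stat2) and 2 (of Irf1 and Irf2) held these letters, respectively, and the NF-κB match of Irf2 lies outside the stretch shown. The stretches lie upstream of the starts that RefSeq gives. A match of letters is a description and not a binding site, and no binding was measured here.

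With IFN-γ, 7 of the 8 genes were at least 2-fold higher in β-like cells, beside 4.68% of all genes tested, and Stat3 was the exception. With both cytokines all 8 genes were at least 2-fold higher, beside 10.7% of all genes. With IL-1β the genes past 2-fold were Stat2, Stat3, Irf1 and Irf9, beside 16.8% of all genes, and these 4 calls did not hold on the other scales. With totals scaled to the median of all genes, or with hormone genes left out of the totals, 0 of the 8 genes reached 2-fold after IL-1β, 6 after IFN-γ and 7 after both, and Irf2 was the gene that lost the last 2 calls. Under median scaling 7.55% of all genes were 2-fold higher with IL-1β and 8.22% were 2-fold lower, so that 47.9% of these calls were higher, against 81.7% without scaling. After IFN-γ and after both, 2.74% and 9.85% of all genes were 2-fold higher under median scaling, and 2.93% and 8.48% with hormone genes left out. For IFN-γ, 80.5% of the calls were higher under median scaling, against 97.7% without scaling. On the ln scale described at the end, with a limit of 0.5, fewer of the 8 genes were counted in each treated library. The medians of the genes that had a fold were 1.08 with IL-1β (6 genes), 2.88 with IFN-γ (7 genes) and 3.07 with both (7 genes) on the log2 scale. Batf2 was under the low-value filter used for all genes in β-like and α-like cells, so 7 of 8 genes passed it there and 8 of 8 in δ-like cells.

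In α-like cells, 0 of the 8 genes were 2-fold higher with IL-1β, beside 9% of all 9465 genes tested. With IFN-γ there were 7, all but Stat3, beside 6.8%, and with both there were 7, all but Irf2, beside 9.87%. The α-like call of Irf9 with IFN-γ, a fold of 3.78, was lost at 1.99 when cells were thinned to 4000 UMIs. In δ-like cells the count with IL-1β was 1, which was Stat2 with 2 UMIs in the untreated library, beside 10.7% of all 7696 genes. It was 6 with IFN-γ, all but Stat3 and Irf2, beside 5.64%, and 8 with both, beside 11.4%. Of those 8, Irf2 fell under 2-fold in 5 alternatives (1.78 to 1.99) and Stat3 in 1 (1.97, without the upper gene limit). In these smaller classes the Batf2 calls with IFN-γ rested on 4 UMIs in α-like and 12 UMIs in δ-like cells against 0, for which the floor of 3 UMIs does not reach a 2-fold difference. The plot of levels in endocrine cells shows all values.

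**Figure D1:**
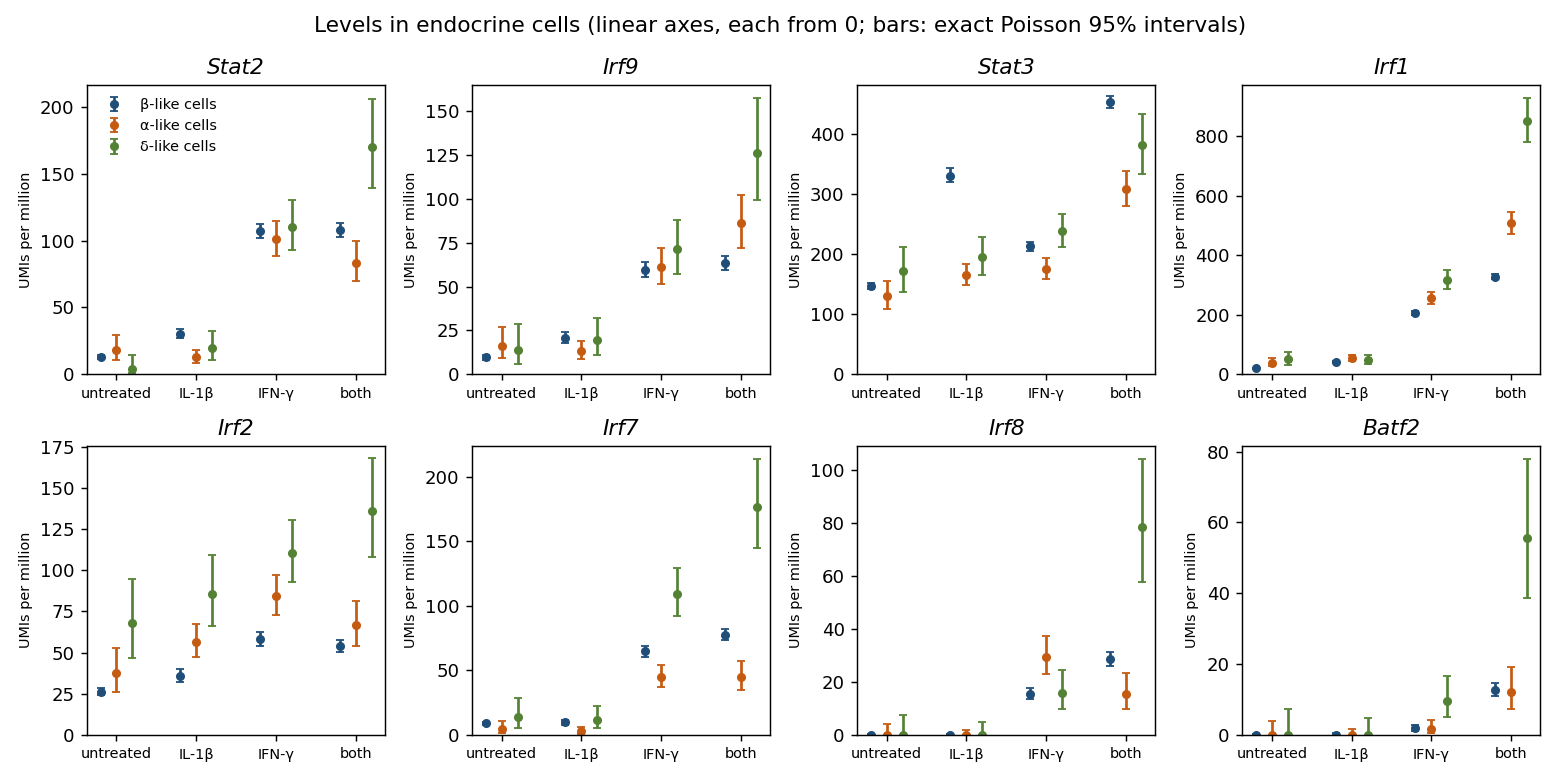
Levels of the 8 genes in CPM (y axis, linear, from 0, a separate scale for each gene) in the 4 libraries (x axis), with points for β-like, α-like and δ-like cells and bars for exact Poisson 95% intervals. The IFN-γ and combined libraries stood above the untreated library in each class for Stat2, Irf9, Irf1 and Irf7, whereas β-like Stat3 was also high with IL-1β alone.

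Stat2 and Irf9 encode the ISGF3 partners. Stat2 (ENSMUSG00000040033, GRCm38 chr10:128270559-128292849, plus strand) was low in untreated β-like cells at 12.9 CPM (11.3 to 14.5) and reached 30.1 CPM (26.8 to 33.8) after IL-1β, 107 CPM (102 to 113) after IFN-γ and 108 CPM (103 to 113) after both. The IFN-γ and combined libraries were thus alike and far above the other two. The folds over untreated were 2.35 (1.98 to 2.79) for IL-1β, 8.33 (7.29 to 9.55) for IFN-γ and 8.40 (7.36 to 9.62) for the combination. The first of these was 1.78 after median scaling. Both cytokines over IFN-γ gave a ratio of 1.01 (0.939 to 1.08), which was 1.20 (1.12 to 1.29) after median scaling.

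In α-like cells Stat2 stood at 18.3, 12.5, 101 and 83.4 CPM in the order untreated, IL-1β, IFN-γ and both, and in δ-like cells at 3.98, 19.5, 110 and 170 CPM. In both classes the libraries with IFN-γ were the highest. On the CPM scale the 3 endocrine classes reached nearly the same level with IFN-γ alone. With both cytokines they separated, and the δ-like interval (139 to 206 CPM) lay above the β-like one. Hormone genes took different shares of the UMIs in these classes, so this comparison depends on the scale.

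Irf9 (ENSMUSG00000002325, chr14:55603571-55610030, plus strand) followed the same order. Its β-like levels were 9.57 CPM (8.26 to 11.04), 20.7 CPM (17.9 to 23.8), 59.6 CPM (55.6 to 63.8) and 63.3 CPM (59.4 to 67.4). The folds with IFN-γ and with both were 6.22 (5.31 to 7.32) and 6.61 (5.66 to 7.77). With both cytokines over IFN-γ alone the ratio was 1.06 (0.968 to 1.17) in β-like cells, but 1.41 (1.10 to 1.80) in α-like and 1.76 (1.28 to 2.42) in δ-like cells, and the β-like ratio was 1.27 (1.15 to 1.39) after median scaling. Irf9 overlaps Rnf31 on the same strand in the annotation, so reads from the shared part cannot be told apart.

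Stat3 was the gene whose highest level with a single cytokine came from IL-1β in β-like cells. Stat3 (ENSMUSG00000004040, chr11:100885098-100939540, minus strand) was at 147 CPM (142 to 153) in the untreated library, 331 CPM (320 to 343) after IL-1β, 213 CPM (205 to 221) after IFN-γ and 454 CPM (443 to 465) after both. None of the 4 intervals overlapped. The folds were 2.25 (2.14 to 2.37), 1.45 (1.38 to 1.52) and 3.08 (2.95 to 3.22), and after median scaling they were 1.71, 1.16 and 2.96. In thinned β-like cells a Stat3 UMI was found in 44.7%, 71.1%, 53.3% and 81.3% of cells.

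The IL-1β difference of Stat3 was smaller in the other endocrine classes. α-like cells stood at 131, 165, 175 and 309 CPM, a fold of 1.27 (1.03 to 1.57) with IL-1β, and δ-like cells at 171, 195, 239 and 381 CPM, a fold of 1.14 whose interval included 1. With both cytokines the folds were 2.36 (1.93 to 2.91) and 2.23 (1.73 to 2.89). The highest library was the combined one in all 3 classes.

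Irf1, the early IFN-γ gene, was far higher in both libraries with IFN-γ. In β-like cells Irf1 (ENSMUSG00000018899, chr11:53770014-53778374, plus strand) was at 19.7 CPM (17.8 to 21.8), 40.4 CPM (36.5 to 44.6), 205 CPM (197 to 212) and 327 CPM (318 to 337) in the order untreated, IL-1β, IFN-γ and both. The folds were 2.05 (1.78 to 2.37), 10.4 (9.35 to 11.6) and 16.6 (15.0 to 18.5). A UMI of Irf1 was found in 8.65% of thinned untreated β-like cells (7.08 to 10.4) and in 12.4%, 52.4% and 65.1% (62.4 to 67.8) of cells in the treated libraries. The combined library was thus above IFN-γ alone in level and in the share of cells.

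The step from IFN-γ alone to both cytokines differed in size among the endocrine classes. It was 1.60-fold (1.53 to 1.67) for Irf1 in β-like cells, 1.99-fold (1.79 to 2.22) in α-like cells and 2.68-fold (2.34 to 3.05) in δ-like cells. These 3 counting intervals did not overlap, but they leave out the spread between cells. With both cytokines the variance of Irf1 UMIs over thinned cells was 1.53 times the mean in β-like cells. It was 2.28 times in α-like and 2.19 times in δ-like cells, where a Poisson count has a ratio of 1. Whether the steps differ beyond this spread was not tested. After median scaling the α-like (2.15 to 2.67) and δ-like (2.63 to 3.42) intervals did overlap. The levels with both cytokines were 508 CPM (472 to 545) in α-like and 851 CPM (780 to 928) in δ-like cells, so the order was δ-like, α-like and β-like, with no overlap of neighbours. The same order held with IFN-γ alone, at 318, 255 and 205 CPM. With IL-1β alone the intervals of the folds in α-like cells (0.987 to 2.17) and δ-like cells (0.548 to 1.63) included 1, but after median scaling the α-like fold was 1.51 (1.03 to 2.26).

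Irf2 (ENSMUSG00000031627, chr8:46739732-46847458, plus strand) can oppose Irf1. Its β-like levels were 26.2 CPM (23.9 to 28.5), 36.0 CPM (32.3 to 40.02), 58.1 CPM (54.2 to 62.2) and 53.8 CPM (50.2 to 57.6). The folds of 2.22 (1.99 to 2.48) for IFN-γ and 2.06 (1.84 to 2.30) for the combination became 1.78 and 1.97 after median scaling. Both libraries with IFN-γ stood above both without it. Of the 3 endocrine classes, δ-like cells had the highest untreated level, 67.7 CPM (46.9 to 94.6), against 37.8 CPM (26.3 to 52.5) in α-like cells, with overlapping intervals.

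Irf7 (ENSMUSG00000025498, chr7:141262706-141266481, minus strand), the amplifier of type I interferon responses, did not differ with IL-1β beyond counting error. β-like cells held 8.82 CPM (7.56 to 10.2), 9.63 CPM (7.76 to 11.8), 64.8 CPM (60.7 to 69.2) and 77.5 CPM (73.1 to 81.98) in the order of the libraries. The fold with IFN-γ was 7.35 (6.25 to 8.69) and with both 8.78 (7.49 to 10.4). In δ-like cells Irf7 reached 110 CPM after IFN-γ and 177 CPM (145 to 213) after both, against 45.1 CPM and 45.1 CPM (34.9 to 57.2) in α-like cells. The δ-like level was the highest of the 3 classes in both libraries.

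Irf8 and Batf2, known mainly from myeloid cells, were absent or nearly so from β-like cells that had no IFN-γ. Neither had a UMI in such α-like and δ-like cells, where far fewer UMIs were read and absence is less certain. Irf8 (ENSMUSG00000041515, chr8:120736358-120756694, plus strand) had 0 UMIs in the untreated and IL-1β libraries in β-like, α-like and δ-like cells. In β-like cells the floor of 3 UMIs stood at 0.151 CPM without treatment and 0.314 CPM with IL-1β, and the exact Poisson intervals of these counts of 0 reached 0.186 and 0.386 CPM. With IFN-γ there were 216 UMIs, or 15.5 CPM (13.5 to 17.7), and with both 440 UMIs, or 28.5 CPM (25.9 to 31.3). Against that floor in the untreated library, Irf8 was at least 102-fold higher after IFN-γ and at least 189-fold higher after both. These bounds leave out the counting error of the treated count, and the exact intervals of the folds began at 82.6 and 153. A UMI was found in 12.1% of β-like cells with IFN-γ and 18.5% with both, and in 4.89% and 9.49% after thinning.

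Irf8 in α-like cells was at 29.5 CPM (23.0 to 37.3) with IFN-γ from 70 UMIs and at 15.5 CPM (9.81 to 23.2) with both from 23 UMIs. In δ-like cells it was at 15.9 CPM (9.69 to 24.5) from 20 UMIs and at 78.6 CPM (57.9 to 104) from 48 UMIs. Against the floor in the untreated library, Irf8 with IFN-γ was at least 9.11-fold higher in α-like and 2.66-fold higher in δ-like cells. The exact intervals of these folds began at 7.22 and 1.97. Adding IL-1β to IFN-γ thus went with a lower level in α-like cells, 0.524-fold (0.312 to 0.850), and with a higher one in β-like cells, 1.84-fold (1.56 to 2.18), and in δ-like cells, 4.95-fold (2.88 to 8.81). After median scaling the α-like ratio was 0.630 (0.375 to 1.02). Irf8 overlaps the gene model Gm20388 on the same strand, so their reads cannot be told apart where they overlap.

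Irf8 is abundant in macrophage-like cells, at 407, 373, 1636 and 1566 CPM, so macrophage markers were read in the endocrine classes too. The 12 markers summed to 74.6, 51.6, 48.5 and 149 CPM in β-like cells of the 4 libraries, with a UMI of 10, 8, 10 and 11 of them, and most of this was C1qa (69.6, 36.3, 40.4 and 137 CPM). Adgre1, which encodes the macrophage marker F4/80, was at 0 in all 4 libraries, and C1qb had 5, 2, 6 and 2 UMIs. Each marker's level in a class was then multiplied by the ratio of Irf8 to that marker in macrophage-like cells of the same library. In β-like cells with IFN-γ and with both this gave 16.4 and 37.7 CPM of Irf8 from C1qa and 6.48 and 7.81 CPM from Cd68, and at most 0.460 and 0.939 CPM from each of the other 10 markers, beside 15.5 and 28.5 CPM seen. In the untreated library C1qa gave 7.71 CPM, where 0 UMIs of Irf8 were counted.

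The same ratios in α-like cells gave 8.39 and 8.52 CPM from C1qa and 4.57 and 13.4 CPM from Cd68, beside 29.5 and 15.5 CPM of Irf8 seen. In δ-like cells they gave 25.5 and 21.2 CPM from C1qa and 3.82 and 13.03 CPM from Cd68, beside 15.9 and 78.6 CPM seen. Each of the other 10 markers gave at most 0.477 and 1.19 CPM in α-like cells and 0.598 and 0.967 CPM in δ-like cells, and most of them were at 0. Acinar markers, which report RNA of exocrine cells, summed to 67.2, 12.8, 71.7 and 310 CPM in β-like cells, led by Ctrb1, and were also highest in the combined library. The part of RNA from other cells in the Irf8 levels was not tested.

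Batf2 (ENSMUSG00000039699, chr19:6140983-6172476, plus strand) had the largest ratio of both cytokines to IFN-γ alone among the 8 genes in each of the 3 endocrine classes. In β-like cells it had 1, 0, 26 and 196 UMIs in the 4 libraries, which are 0.0504, 0, 1.86 (1.22 to 2.73) and 12.7 CPM (10.99 to 14.6). The level with both was 6.81-fold (4.51 to 10.7) that with IFN-γ. The ratio was 7.18 (2.37 to 29.2) in α-like cells, from 18 and 4 UMIs, and 5.84 (2.95 to 12.4) in δ-like cells, from 34 and 12 UMIs. That δ-like interval overlapped those of Irf8 (2.88 to 8.81) and Irf1 (2.34 to 3.05). The combined level in δ-like cells was 55.7 CPM (38.5 to 77.8), above those of β-like and α-like cells (12.1 CPM, 7.18 to 19.1).

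**Figure D2:**
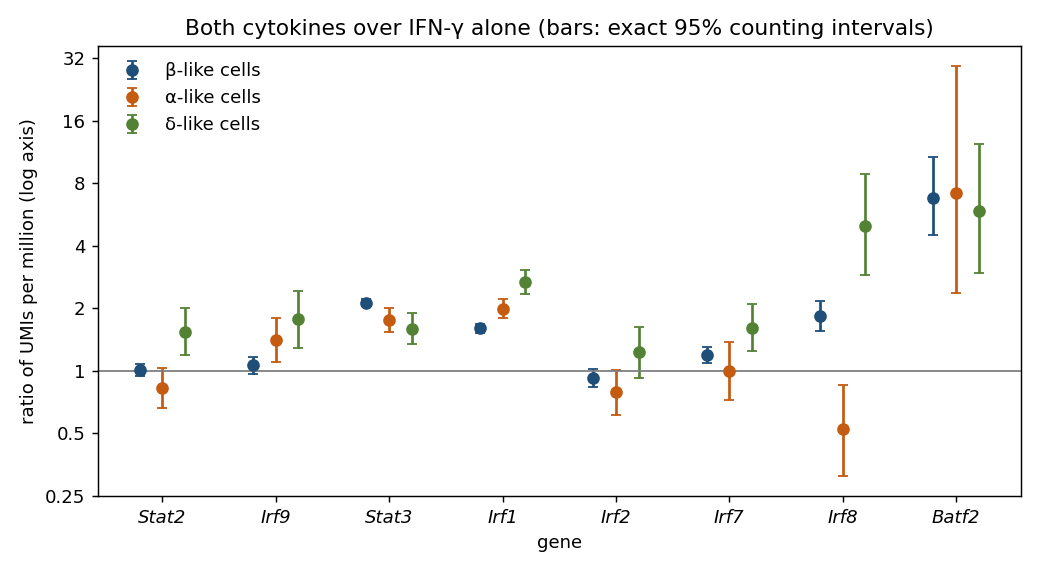
Ratio of the level with both cytokines to the level with IFN-γ alone (y axis, log scale) for each gene (x axis), with points for β-like, α-like and δ-like cells, exact 95% counting intervals as bars and a line at 1. Batf2 stood highest in all 3 classes, but in δ-like cells its interval overlapped those of Irf8 and Irf1. Irf1 and Stat3 lay above 1 throughout, and Irf8 lay below 1 in α-like cells alone.

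The level with both cytokines can be set beside the sum of the untreated level and both single differences. In β-like cells it was 7.004 times that sum for Batf2, 1.84 times for Irf8, 1.45 times for Irf1, 1.18 times for Irf7 and 1.14 times for Stat3. After median scaling these ratios were 8.41, 2.20, 1.79, 1.47 and 1.58. Irf9 (0.895), Stat2 (0.868) and Irf2 (0.792) were below the sum, but after median scaling they stood above it at 1.12, 1.08 and 1.08, so the side of the sum on which these 3 genes lay depended on the scale. In δ-like cells the ratio was 5.84 for Batf2, 4.95 for Irf8 and 2.70 for Irf1. In α-like cells Irf8 (0.524) and Irf2 (0.647) were below the sum, also after median scaling (0.630 and 0.749), whereas Stat2 was below it at 0.875 and above it at 1.05 after median scaling.

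Outside the endocrine cells, Irf1, Irf7 and Batf2 reached their highest levels in endothelial-like cells and Irf8 in macrophage-like cells, as the plot of all cell classes shows. Endothelial-like cells held Irf1 at 61.1, 32.01, 937 and 1175 CPM, Irf7 at 33.9, 80.0, 439 and 774 CPM and Batf2 at 6.79, 0, 212 and 258 CPM in the order untreated, IL-1β, IFN-γ and both. These levels come from 24, 30, 36 and 14 cells. In macrophage-like cells Batf2 was at 3.45, 4.78, 89.7 and 138 CPM, and Irf1 at 31.1, 9.56, 452 and 387 CPM. They come from 33, 37, 40 and 28 cells, and with IL-1β they rest on 1 UMI of Batf2 and 2 of Irf1. Irf7 was already at 121 CPM in untreated macrophage-like cells, above its untreated level in β-like cells. In ductal-like cells Irf1 reached 464 CPM with IFN-γ and 563 CPM with both, from 25 and 15 cells. In mesenchymal-like cells Irf8 had 0, 3, 14 and 27 UMIs in the 4 libraries, which are 0, 19.6, 81.04 and 304 CPM. These libraries held 11, 22, 20 and 10 such cells.

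**Figure D3:**
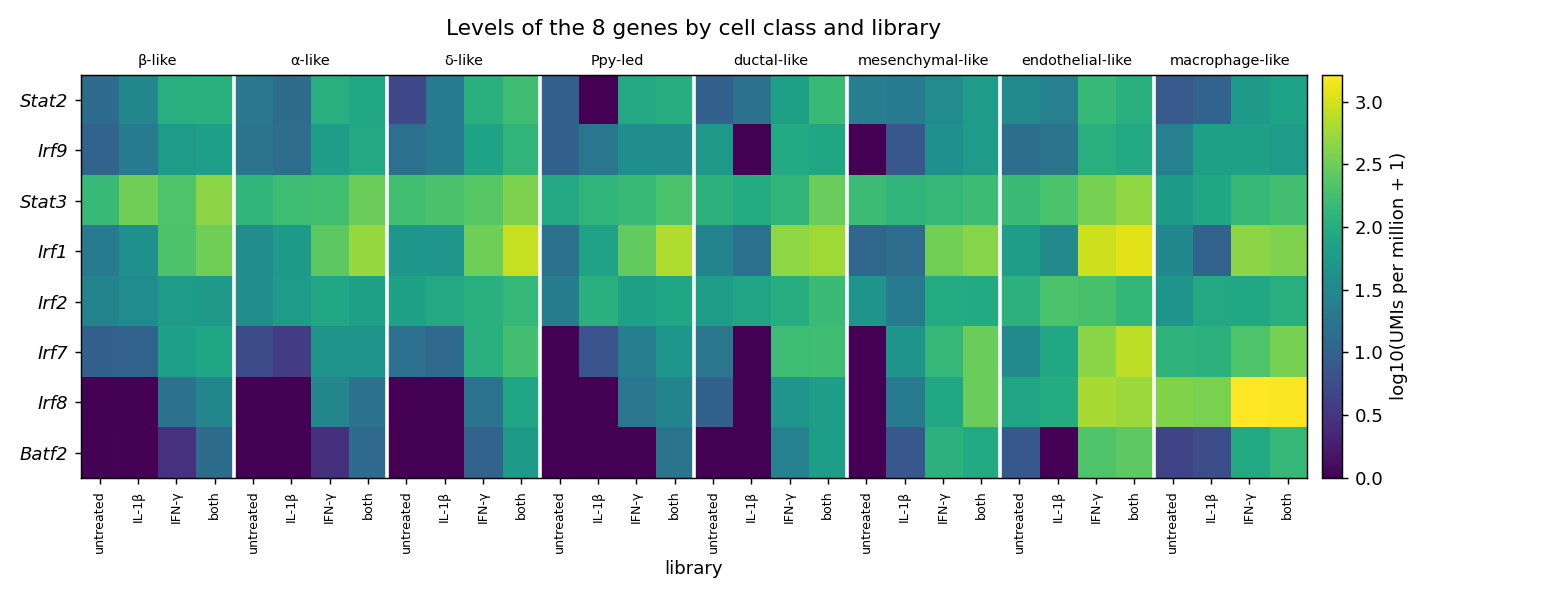
Levels of the 8 genes (rows) in 8 cell classes with the 4 libraries side by side (columns), with colour for log10(CPM + 1). Irf8 was brightest in macrophage-like cells, at 1636 CPM with IFN-γ, and dark in endocrine cells without IFN-γ, while Stat3 was seen in every class and library.

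How the UMIs were spread over cells was examined in β-like cells thinned to 4000 UMIs. With IFN-γ, Stat2 had a variance 1.01 times its mean and Irf9 0.999 times, where a Poisson count has a ratio of 1. With both cytokines the ratio was 1.249 for Stat2 and 1.02 for Irf9. For Irf1 it was 1.31 with IFN-γ and 1.53 with both. With both, 34.9% of cells had no Irf1 UMI, where a Poisson count with the same mean of 1.36 UMIs gives 25.5%. Another 18.8% of cells had 3 or more Irf1 UMIs. For Stat3 with both cytokines 18.7% of cells had no UMI, beside 14.9% for a Poisson count. Batf2 and Irf8 with both had ratios of 1.76 and 1.73. A β-like cell held on average UMIs of 0.769, 1.21, 2.11 and 2.60 of the 8 genes in the 4 libraries, and the share of cells with none of them was 39.5%, 17.6%, 10.0% and 3.52%.

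Whether the genes were detected in the same cells was read in thinned β-like cells. With both cytokines, a Stat3 UMI was found in 84.3% (81.6 to 86.8) of 796 cells with an Irf1 UMI and in 75.6% (71.2 to 79.6) of 426 cells without, and these intervals did not overlap. With IFN-γ alone the shares of Stat3, 57.0% (52.998 to 60.9) and 49.3% (45.1 to 53.5), had overlapping intervals. For Stat2 with both cytokines the shares were 35.2% (31.9 to 38.6) and 28.2% (23.9 to 32.7), and for Irf9 23.9% (20.9 to 27.0) and 23.7% (19.7 to 28.0). The intervals of Stat2, Irf9, Irf2, Irf7, Irf8 and Batf2 overlapped in this library.

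Levels also differed with Nos2, which encodes the inducible nitric oxide synthase. With both cytokines 887 β-like cells had a Nos2 UMI and 365 had none, with medians of 12823 and 10565 UMIs per cell. Irf1 was at 341 CPM (330 to 352) in the former and 287 CPM (270 to 304) in the latter, Irf7 at 84.2 (79.0 to 89.6) and 57.2 CPM (49.9 to 65.3), Batf2 at 14.8 (12.6 to 17.2) and 6.50 CPM (4.21 to 9.60), and Stat3 at 473 (461 to 486) and 395 CPM (376 to 416). None of these pairs of intervals overlapped, whereas those of Irf9 did, at 66.1 (61.5 to 71.0) and 54.9 CPM (47.7 to 62.8). With IL-1β alone, Stat3 was higher in the 324 cells with a Nos2 UMI, at 381 CPM (359 to 403) against 308 CPM (294 to 321). Irf1 was at 33.5 CPM (27.3 to 40.6) in these cells against 43.7 CPM (38.8 to 49.1), with overlapping intervals. Irf7 was at 5.85 CPM (3.46 to 9.24) against 11.4 CPM (8.98 to 14.4), also overlapping and opposite in direction to the combined library. The part of depth in these differences was not tested.

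β-like cells with many transcripts of Hspa1a, a heat shock chaperone, were a small group in which some of the factors stood apart, and they were examined after the data had been seen. At least 10 Hspa1a UMIs per 10000 were found in 19, 98, 78 and 78 β-like cells. With IFN-γ such cells had less Irf1, 95.1 CPM (73.7 to 121) against 211 CPM (203 to 219), and less Stat2, 49.7 CPM (34.6 to 69.1) against 110 CPM (105 to 116). With IL-1β they had more Irf1, 127 CPM (101 to 158) against 34.0 CPM (30.3 to 38.1), but less Stat3, 144 CPM (116 to 176) against 345 CPM (333 to 357). With both cytokines Irf1 was at 314 CPM (278 to 353) against 328 CPM (319 to 338), with overlapping intervals, and Stat3 stayed lower, at 301 CPM (266 to 340) against 463 CPM (452 to 474). Without these cells the fold of Irf1 with IL-1β in β-like cells was 1.73 in place of 2.05.

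**Figure D4:**
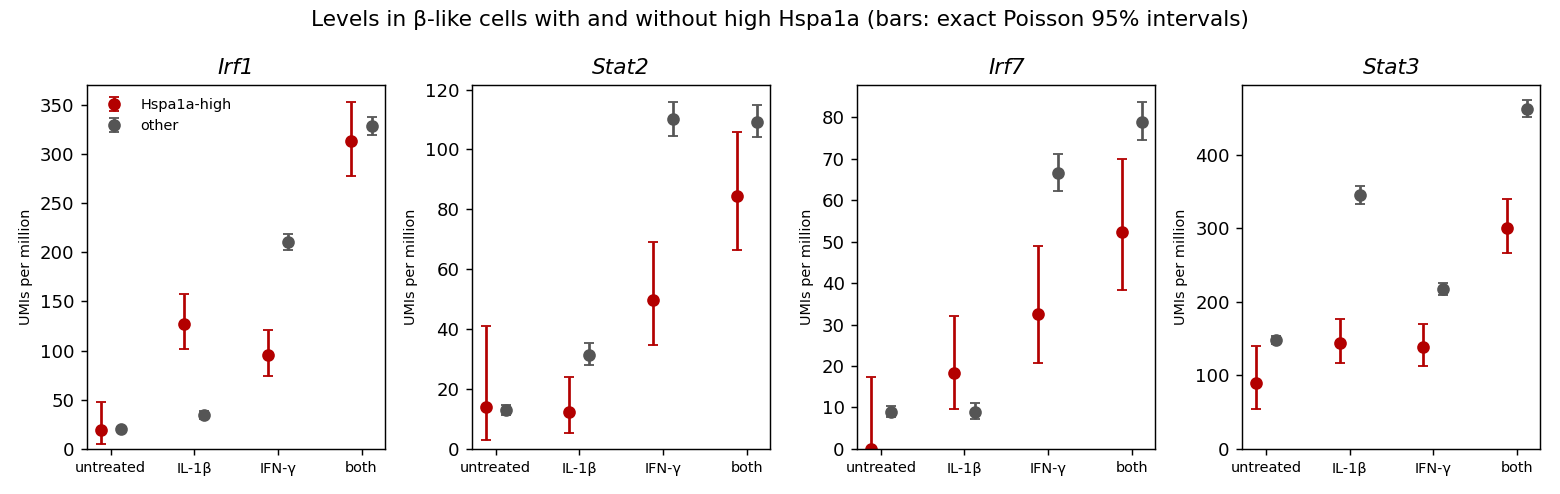
Levels of Irf1, Stat2, Irf7 and Stat3 in CPM (y axis, linear, from 0, a separate scale for each gene) in the 4 libraries (x axis), for β-like cells with at least 10 Hspa1a UMIs per 10000 and for the other β-like cells, with exact Poisson 95% intervals as bars. Irf1 was higher in the Hspa1a-high cells with IL-1β (127 against 34.0 CPM) and lower with IFN-γ (95.1 against 211 CPM).

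Further genes of these families serve as a comparison. In β-like cells Stat5a stood at 8.21, 7.12, 9.54 and 8.30 CPM and Stat5b at 22.9, 20.3, 28.7 and 18.3 CPM, while Stat6, the STAT of IL-4, was at 8.16, 17.2, 8.25 and 13.9 CPM, a fold of 2.10 with IL-1β that became 1.60 after median scaling. Irf3, which is activated by nucleic acid sensors, was at 15.2, 15.7, 16.2 and 14.9 CPM. It did not reach 2-fold in any treated library, and Irf4 had 0 UMIs in all 4 libraries. Batf and Batf3 were under the low-value filter in β-like cells.

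Receptors and kinases upstream were counted over the 10 of 11 listed genes that passed the filter in β-like cells. At least 2-fold higher were 6, 2 and 5 genes in the 3 treated libraries, beside 16.8%, 4.68% and 10.7% of all genes, and 2 were at least 2-fold lower with both, beside 7.76%. After median scaling the counts higher were 4, 0 and 5. Ifngr2, a chain of the IFN-γ receptor, stood at 5.29, 57.9, 5.09 and 51.1 CPM, so it was high in both libraries with IL-1β. Il1r1, the IL-1 receptor, was at 240.0, 254, 223 and 91.9 CPM, and was low with the combination alone. In α-like cells the counts higher were 2, 1 and 3 of 10 genes, beside 9%, 6.8% and 9.87% of all genes, and in δ-like cells 3, 0 and 3 of 9, beside 10.7%, 5.64% and 11.4%. At least 2-fold lower were 2 in α-like cells with both (15.2% of all genes), and in δ-like cells 1 after IFN-γ (3.29%) and 2 after both (18.7%).

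Known targets of ISGF3 were counted over 15 of 19 genes in β-like cells. There were 12, 15 and 15 at least 2-fold higher in the 3 treated libraries, beside 16.8%, 4.68% and 10.7% of all genes, and as many after median scaling. They had medians of 1.83, 4.14 and 4.52 on the log2 scale beside 0.40, 0.32 and 0.06 for all genes. Ifit2, an antiviral effector, had 2 UMIs (0.101 CPM) without treatment and stood at 1.47, 16.1 and 60.9 CPM in the treated libraries. It passed the filter, a mean over all 4 libraries, through its treated levels, so the 2-fold counts are partly set by the filter. Ifi35, an interferon-induced protein, was at 14.8, 20.4, 39.4 and 59.5 CPM. In α-like cells 5 of 13 were at least 2-fold lower with IL-1β, beside 9.33% of all genes, and the only one called higher, Isg15, stood against 0 UMIs with a bound under 2-fold. With IFN-γ and with both, 10 and 9 of 13 were higher there, beside 6.8% and 9.87% of all genes. In δ-like cells the counts higher were 5, 13 and 13 of 13, beside 10.7%, 5.64% and 11.4%.

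Genes linked to IRF1 were counted over 10 of 13 genes in β-like cells, and 7, 10 and 10 were at least 2-fold higher with IL-1β, IFN-γ and both, beside 16.8%, 4.68% and 10.7% of all genes. After median scaling the counts were 7, 9 and 10. Here too, genes at or near 0 without treatment passed the filter through their treated levels, which sets these counts in part. The 8 genes with UMIs in both libraries of each comparison had medians of 1.69, 4.53 and 4.90 on the log2 scale, beside 0.40, 0.32 and 0.06 for all genes. With genes at 0 in the untreated library set at their bound, the medians were 1.75 (9 genes), 3.83 and 6.44 (10 genes each). Cxcl10, a chemokine for T cells, stood at 2.17, 65.4, 75.7 and 2676 CPM, and B2m, the light chain of MHC class I, at 197, 321, 445 and 733 CPM. In α-like cells the counts higher were 3, 10 and 11 of 11, beside 9%, 6.8% and 9.87% of all genes, with 2 lower after IL-1β, beside 9.33%. Of those higher, 1 with IL-1β (Ciita) and 2 with IFN-γ (Cxcl9 and Nos2) stood against 0 UMIs with a bound under 2-fold. In δ-like cells the counts were 5, 9 and 11 of 11, beside 10.7%, 5.64% and 11.4%, and 1 of the 5 (Nlrc5) had such a bound.

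Genes linked to STAT3 followed the cytokines differently. In β-like cells 6, 1 and 7 of 7 genes were at least 2-fold higher in the 3 treated libraries, beside 16.8%, 4.68% and 10.7% of all genes, and as many after median scaling. The medians were 2.37, 0.66 and 2.19 on the log2 scale, beside 0.40, 0.32 and 0.06 for all genes. Lcn2, which encodes the iron-binding protein lipocalin 2, stood at 27.1, 532, 32.6 and 388 CPM. Junb, an AP-1 subunit, was at 87.9, 171, 84.5 and 187 CPM. In α-like cells the counts were 8, 2 and 8 of 9, beside 9%, 6.8% and 9.87% of all genes, and in δ-like cells 6, 2 and 8 of 8, beside 10.7%, 5.64% and 11.4%. Stat3 itself was higher with IL-1β than with IFN-γ in β-like cells (331 against 213 CPM) and lower in δ-like cells (195 against 239 CPM), where the ratio of IFN-γ to IL-1β was 1.23 (1.01 to 1.503). In α-like cells (165 against 175 CPM) the interval of this ratio, 0.920 to 1.22, included 1, and after median scaling the fold over untreated was the higher one for IL-1β, 1.32 against 1.26.

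The genes most like a factor over the 12 values of 3 endocrine classes and 4 libraries were sought among 7330 genes by Pearson's r of log2(CPM + 1). These values share libraries, depth and the change in hormone UMIs, so r is a description. For Irf1 they were Fbxw17, Trafd1 and Xaf1, each at 0.97. For Irf7 they were Pml (0.98), Psmb9 (0.96) and 9930111J21Rik2 (0.94), for Stat3 Gbp5 (0.94), Rab7 (0.93) and Gtpbp2 (0.93), and for Batf2 Dhx58 (0.95), Htt (0.94) and B2m (0.94).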

How the data were processed

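Raw UMI counts per gene and cell, as deposited by the authors without normalization, were used. The authors counted with Cell Ranger on mm10 per the submitters' processing notes, and the matrix headers give software version 3.0.0. The reagent kit is version 2 in the labels and version 3 in the study's methods. The analysis ran in Python 3.11.15 with pandas 2.3.3, scipy 1.17.1, numpy 2.4.6 and matplotlib 3.10.9. The 8 genes, the gene lists and the cell type markers were chosen with earlier results of these data known. All 8 genes were named, and from other lists the genes with the largest and smallest fold in β-like cells with both cytokines, with at most 4 per list and some not reported here. A gene entered the background with a mean of at least 5 CPM and 40 UMIs in a class. The mean was taken over all 4 libraries, so a gene low without treatment could enter through its treated levels. The same filter was applied to the listed genes, and their counts called higher are in part set by it. A gene with 0 UMIs in both libraries was never called, and the floor for a count of 0 was 3 UMIs. List genes called against 0 UMIs with a bound under 2-fold were named after their values were seen. Intervals are at 95%. The low-value filter was not applied to the 8 genes in their own count. Gene positions are those of GENCODE M21, where 30934 of 31053 identifiers were found. The fold and interval code was tested on simulated data. Alternatives changed 1 choice at a time: no upper gene limit, 20% in place of 12% mitochondrial UMIs, thinning of cells to 4000 or 2000 UMIs, hormone limits, scaling, shared barcodes, the deepest cells, the fold limit, the ln scale, the low-value filter and a pseudocount of 1 CPM. Leaving out Hspa1a-high cells was added after the data had been seen.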

Additional observations from a re-analysis of the deposited data

Results flagged for a closer look

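Irf8 with both cytokines over IFN-γ alone went in opposite directions in the endocrine classes. The ratio was 1.84 (1.56 to 2.18) in β-like cells and 4.95 (2.88 to 8.81) in δ-like cells, but 0.524 (0.312 to 0.850) in α-like cells, where it rested on 23 and 70 UMIs. With 1 library per condition the difference between the classes was not tested, and after median scaling the α-like interval, 0.375 to 1.02, included 1.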

How the results depend on the processing

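Among 126 alternatives of the 9 counts of genes at least 2-fold higher, 114 stayed within 1.5 times the reported count. The count with IL-1β in β-like cells, 4 as reported, was 2 after thinning to 4000 UMIs, 0 with hormone genes left out of the totals, 0 with median scaling and 0 at a limit of 3-fold. With a gene counted where ln(UMIs per 10000 + 1) in the treated library exceeded that of the untreated one by over 0.5, the counts for IL-1β, IFN-γ and both were 1, 2 and 3 in β-like cells, 2 with IFN-γ and 2 with both in α-like cells, and 0 with IL-1β and 3 with IFN-γ in δ-like cells. In α-like cells with IL-1β, the class made from the leading hormone alone gave 1 in place of 0. With the low-value filter applied to the 8 genes too, the counts for IL-1β, IFN-γ and both were 4, 6 and 7 in β-like, 0, 6 and 6 in α-like and 1, 6 and 8 in δ-like cells. Without Hspa1a-high cells, which was chosen after seeing the data, they were 3, 7 and 8 in β-like cells. Of 611 alternatives of 56 folds, 573 stayed inside the counting interval, 0 reversed a called direction and 25 changed a 2-fold call. Of 64 alternatives of 32 shares under thinning, 58 lay outside the interval of the share. No paired analysis was possible because the labels give no replicate numbers and each condition had 1 library. α-like and δ-like cells of the untreated library, 89 and 59 cells, limit the folds over untreated in those classes.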
